A study of Mus musculus with 196 samples.

Results

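Primordial germ cell-like cells (PGCLCs) cultured with a compound that the labels name only as BMS were compared with PGCLCs of the same clone kept in control medium, at culture days 4, 5, 7 and 9 and without doxycycline (Dox). The members are all PGCLC_Zglp1OE_cloneA2 libraries of these treatments and days, 16 of the 194 libraries with a column in the expression table: 8 with BMS and 8 with control medium, 2 for each treatment and day. PGCLCs are mouse germ cells grown in a dish: embryonic stem cells are first turned into epiblast-like cells, which are then induced to the germ line. The series follows how such cells take up the female (oogenic) germ cell programme, and transcript levels come from sequenced 3′ ends of mRNA.

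Both groups came from 1 clone of strain 129S1:C57BL/6=1:1 and carried the same alleles: the reporters Prdm1-mVenusTg/0 (BV) and Dppa3-ECFPTg/0 (SC), a piggyBac transgene with the Zglp1 coding sequence and mCherry behind a Dox-responsive tetO/mCMV promoter, and a second transgene that expresses rtTA, the Dox-dependent activator, from the EF1a promoter. The control cells therefore also held the uninduced transgenes. Cells positive for BV were sorted after PGCLC induction onto m220 feeder cells, which display stem cell factor on their membrane, and SC-positive cells were sorted again before RNA was extracted. The labels give neither the dose of BMS, nor its full name, nor the day on which it was added, and they do not say whether the 2 libraries of a group came from separate cultures, so p-values measure only the spread between libraries of a group, here pooled over all groups of the model, and this spread may be technical.

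As background, the letters BMS begin the code names of several synthetic ligands of the retinoic acid receptors. Retinoic acid is made from vitamin A by retinol and retinaldehyde dehydrogenases, is carried in the cytoplasm by the Crabp proteins, and is broken down by Cyp26 enzymes. It binds heterodimers of RAR and RXR receptors, which sit on DNA at pairs of the half-site AGGTCA or close relatives of it and turn on nearby genes. In the fetal ovary, retinoic acid and BMP signals accompany the entry of germ cells into meiosis, and Stra8, whose name stands for stimulated by retinoic acid, is the best-known gene switched on at that step.

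The promoters of 3 of the genes that the results turn on are shown because these genes were lower with BMS at the same days. Each sequence holds the 250 bases upstream of a RefSeq transcription start in build GRCm38.p6, 5′ to 3′ on the strand of the gene, with capitals for every match to the half-site AGGTCA, its variant AGTTCA, its variant GGGTCA or its variant GGTTCA on either strand. Stra8 is at chr6:34920698-34920947 (plus strand), Nr6a1 at its second listed start at chr2:38784516-38784765 (minus strand), and Rec8 at chr14:55617916-55618165 (plus strand).
Stra8: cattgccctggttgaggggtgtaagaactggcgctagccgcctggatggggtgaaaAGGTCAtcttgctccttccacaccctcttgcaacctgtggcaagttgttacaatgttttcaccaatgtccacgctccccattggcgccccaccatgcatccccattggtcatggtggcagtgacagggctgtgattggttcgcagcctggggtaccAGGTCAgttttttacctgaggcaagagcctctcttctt
Nr6a1: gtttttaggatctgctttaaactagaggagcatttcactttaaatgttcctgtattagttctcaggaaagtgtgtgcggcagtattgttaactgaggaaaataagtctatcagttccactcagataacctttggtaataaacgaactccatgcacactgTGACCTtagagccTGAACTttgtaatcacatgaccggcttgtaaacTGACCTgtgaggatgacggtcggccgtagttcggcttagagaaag
Rec8: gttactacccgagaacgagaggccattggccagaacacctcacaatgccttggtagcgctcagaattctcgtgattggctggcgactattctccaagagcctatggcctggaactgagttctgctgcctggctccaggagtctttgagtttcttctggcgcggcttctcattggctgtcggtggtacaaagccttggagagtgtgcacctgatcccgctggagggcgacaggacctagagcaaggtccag

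The Stra8 promoter held 2 matches, both AGGTCA on the gene's own strand, which begin at positions -194 and -38 from the start. The second start of Nr6a1 held 3 matches on the opposite strand, at -91, -78 and -45, and its other start held none. The Rec8, Pbx2, Taf7l, Meioc, Sycp1, Crabp1 and Zmym3 promoters held no match. Tle6 at its second start and Igf2 at its first held 2 matches each. Acp5, Krt8, Krt18 and Etv1 held 1 match at 1 or more starts. Such matches are common: 38.6% of all 32851 promoters of this length hold at least 1, 9.75% hold at least 2 and 1.84% hold at least 3. None of the promoters named here held 2 matches in the same direction with 1, 2 or 5 bases between them. Pairs with these spacings are rare, in 0.164%, 0.174% and 0.0883% of all promoters. Of the 69 promoters listed for 53 of the 71 genes that were lower with BMS over the 4 days (below), 29.0% held a match, against 32.8% for the genes tested and 32.4% for the 34 promoters of genes that were higher. A match is a description of the letters and not a bound site.

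The 16 libraries held 1293204 to 3392516 reads, with the BMS library n2 of day 5 the shallowest and all others at 2478702 or more, and 13566 to 16100 genes were detected in each. Levels are reads per 1000000 (RPM), and 1 read was worth 0.295 to 0.773 RPM. Replicates correlated at r = 0.924 to 0.965 over 9797 genes. The summed level of 12 germ cell markers (Dppa3, Prdm1, Tfap2c, Ddx4, Dazl, Pou5f1 and others) was 2265 to 3590 RPM in the control libraries and 2000 to 3747 RPM with BMS, which fits the labelled cell type, while the 14 markers of gonadal somatic cells summed to at most 29.3 RPM, with Amh and Hsd3b1 at 0 in all 16. The Zglp1 row was at 1.18 to 8.26 RPM in control and 1.88 to 8.13 RPM with BMS. Libraries with Dox alone on day 9 held 5.16 and 6.07 RPM in that row, so it gives no measure of the transgene. Reads from the 3′ end of the Zglp1 transgene are counted in a separate row, named mCherry here. A gene counted as changed when limma's adjusted p, Benjamini-Hochberg over all genes tested, was under 0.05 and the difference was at least 1 on the log2(RPM + 1) scale. This scale understates the change of low genes.

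**Figure D1:**
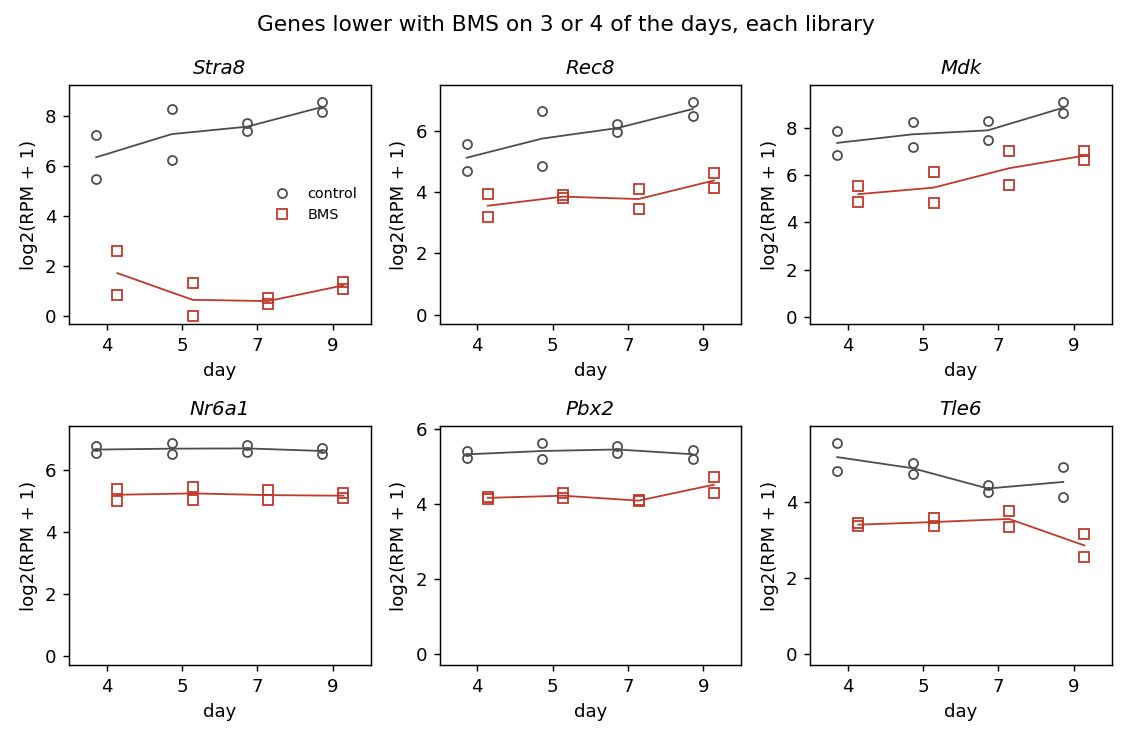
Level of 6 genes lower with BMS on 3 or 4 of the 4 days, on a log2(RPM + 1) axis, by culture day. Grey circles are the control libraries, red squares the BMS libraries and lines the means of 2 libraries. For Stra8, Rec8, Nr6a1, Pbx2 and Tle6 the 8 BMS libraries lie below all 8 control libraries, and for Mdk 2 BMS libraries reach the range of the control libraries.

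Stra8 was nearly absent with BMS on every day. The gene (mm10 chr6:34920163-34939344, plus strand) encodes the protein that germ cells need to start the meiotic programme. Control libraries n1 and n2 held 150 and 43.6 RPM on day 4, 313 and 75.9 on day 5, 169 and 213 on day 7, and 376 and 287 on day 9. With BMS the values were 5.10 and 0.807 RPM on day 4, 1.51 and 0 on day 5, 0.396 and 0.680 on day 7, and 1.13 and 1.63 on day 9. The groups did not overlap on any day, and from day 5 on the BMS libraries held at most a few reads of Stra8. On the log2 scale Stra8 fell by 4.63 on day 4, 6.62 on day 5, 6.96 on day 7 and 7.12 on day 9 (SE 0.69 each). Over the 4 days it fell by 6.33 ± 0.35 (SE), with an adjusted p by limma of 8.28e-29, and it passed in all 23 alternatives computed for that mean. On single days, leaving out a control library left Stra8 with too few libraries at the minimum level to be tested, and without BMS n2 of day 4 it was not called on day 4.

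Few genes were called on single days before day 9: 17 of 8530 tested on day 4 (0.199%, of which 0.106% higher and 0.0938% lower), 8 of 8632 on day 5 (0.0927%, all lower) and 11 of 8765 on day 7 (0.125%, of which 0.0228% higher and 0.103% lower). On day 9 the number was 222 of 9037 (2.46%), 49 higher (0.542%) and 173 lower (1.91%). For the mean over the 4 days it was 110 of 9797 (1.12%), 39 higher (0.398%) and 71 lower (0.725%). Exactly 9 genes were called on 2 or more days, and all 9 were lower with BMS: Stra8, Mdk and Nr6a1 on all 4 days, Rec8, Pbx2 and Tle6 on 3 days, and Cd97, Mtor and Taf7l on 2 days. In bulk RNA, fewer cells that express a gene and less RNA per cell cannot be told apart.

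The counts of single days rest on few libraries. Without control library n1 of day 9, 3 genes were called on that day, and without BMS library n1 20 were, against 95 without control n2 and 403 without BMS n2. Without control n1 or BMS n2 of day 4, 1 and 2 genes were called on day 4. On days 4, 5 and 7, edgeR on the recovered reads called 0 genes, while 517, 266 and 605 genes had an unadjusted p under 0.05. The mean over the 4 days gave 76 to 159 calls when any 1 of the 16 libraries was left out. When the 16 libraries were fitted alone, and so gave the spread themselves, 45 genes were called on day 9 and 43 for the mean.

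Rec8, the cohesin subunit specific to meiosis, was lower in every BMS library than in every control library. Control libraries held 46.5 and 24.5 RPM on day 4, 99.3 and 27.7 on day 5, 61.3 and 73.4 on day 7, and 122 and 88.4 on day 9, and BMS libraries 14.3 and 8.07, 13.0 and 13.9, 16.3 and 9.86, and 23.6 and 16.6 RPM. It fell by 1.89 on day 5, 2.31 on day 7 and 2.33 on day 9 on the log2 scale, and by 2.03 ± 0.21 over the 4 days (limma adjusted p = 3.06e-12). On day 4 the difference of -1.57 ± 0.43 did not pass (adjusted p = 0.118). Rec8 was not called on day 5 without BMS n1, BMS n2 or control n1, on day 7 without control n2 or BMS n2, or on day 9 without control n1 of the same day. Unlike Stra8, Rec8 remained measurable with BMS in all 8 libraries.

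Mdk (midkine) encodes a secreted heparin-binding growth factor first found as a gene induced by retinoic acid. Its control levels were 235 and 114 RPM on day 4, 307 and 145 on day 5, 179 and 314 on day 7, and 544 and 391 on day 9. With BMS they were 45.5 and 27.8, 69.2 and 27.1, 128 and 46.6, and 129 and 97.9 RPM. On each day both BMS libraries lay below both control libraries, while BMS library n1 of days 7 and 9 reached the lowest control value of day 4. Mdk fell on all 4 days and by 2.01 ± 0.19 on the log2 scale over them (limma adjusted p = 2.76e-14). On day 7 the call was at its limit (adjusted p = 0.0484) and was lost under 8 of 11 alternatives, among them the fits without control n1, control n2 or BMS n2. The calls of days 4 and 5 were lost without control n1 or BMS n2 of the day, and that of day 9 without control n1.

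Nr6a1, also called germ cell nuclear factor, is an orphan nuclear receptor that represses pluripotency genes in differentiating cells and is itself known to respond to retinoic acid. Its 8 control libraries spanned 89.5 to 114 RPM (median 98.3) and its 8 BMS libraries 30.9 to 42.3 RPM (median 34.8). It fell by 1.44 to 1.5 on each day (SE 0.22) and by 1.46 ± 0.11 over the 4 days (limma adjusted p = 3.08e-21), and leaving out any 1 library removed none of these calls.

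Pbx2, a homeodomain cofactor of Hox proteins, spanned 35.9 to 48.6 RPM in control libraries and 15.9 to 25.7 RPM with BMS. It fell on days 4, 5 and 7, and over the 4 days by 1.13 ± 0.13 (limma adjusted p = 4.15e-11). On day 9 the difference of -0.81 ± 0.26 was under the threshold. Tle6, a member of the maternal complex of the egg, spanned 16.5 to 45.8 RPM against 4.88 to 12.6 RPM and fell by 1.42 ± 0.15 over the 4 days (adjusted p = 2.36e-12). Neither gene's groups overlapped. On day 5 Pbx2 and Tle6 were not called without control n1, BMS n1 or BMS n2. Pbx2 was also not called on day 4 without any 1 of the 4 libraries, or on day 7 without control n1 or BMS n1.

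Further genes passed for the mean of the 4 days and under all its alternatives: Cd97, an adhesion receptor (fell by 1.54 ± 0.21), Zmym3, a zinc finger protein (1.37 ± 0.20), Tspan9, a tetraspanin (1.31 ± 0.19), Porcn, which attaches the lipid to Wnt proteins (1.22 ± 0.22), and Tgm2, a transglutaminase known as a retinoic acid target (1.92 ± 0.27). Zmym3 separated the groups fully, at 28.1 to 62.2 RPM in control and 13.3 to 21.0 RPM with BMS. Aurkc, an aurora kinase used in meiosis, also did so, with no BMS library over 13.9 RPM and every control library above that, and fell by 1.28 ± 0.22 (adjusted p = 3.21e-05). Acp5, an acid phosphatase, fell by 1.70 ± 0.27. Its groups did not overlap on any single day, but their ranges over all 16 libraries did. Across the 16 libraries the genes whose level followed Stra8 most closely, by Pearson's r over 9797 genes, were Nr6a1 (0.95), Pbx2 (0.94), Rec8 (0.92), Zmym3 (0.92), Abl1 (0.90) and Nudt4 (0.90). These correlations describe libraries that share treatment and day, and carry no p.

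**Figure D2:**
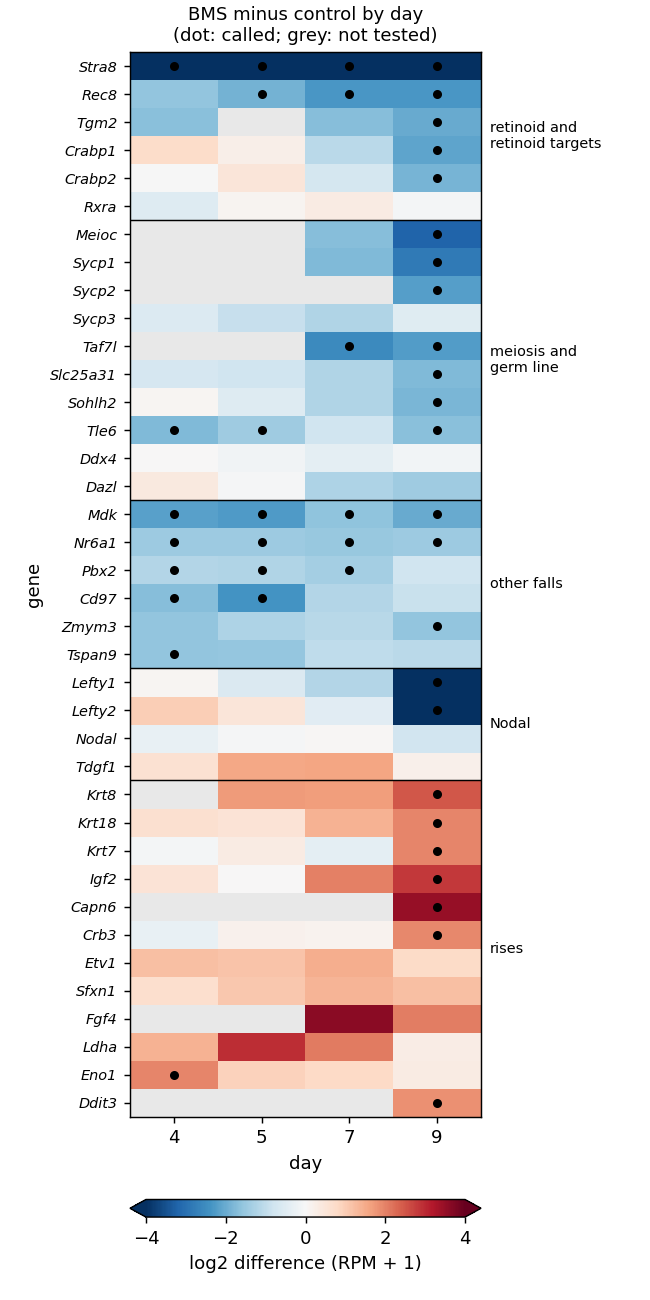
Difference between BMS and control on the log2(RPM + 1) scale for named genes in rows and culture days in columns, with blue for lower and red for higher with BMS and colours clipped at 4. A dot marks a called gene and grey a gene too low to be tested. Stra8, Mdk and Nr6a1 are blue with a dot on all 4 days, and most other dots are on day 9.

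Among the genes of retinoid metabolism, synthesis and breakdown are taken first. Of 14 measured genes of retinoid synthesis and breakdown, 4 were high enough to be tested on day 9. None of the 4 was called, against 2.46% of all genes. Their median difference was -0.27 against -0.13 for all genes tested. Rdh11, a retinol dehydrogenase, was at 31.3 and 46.3 RPM in control and 78.8 and 47.8 RPM with BMS on that day. Dhrs3, a retinaldehyde reductase that retinoic acid is known to induce, was too low to be tested, at 1.44 to 6.61 RPM in the control libraries and 0 to 0.750 RPM with BMS, and its groups did not overlap. Cyp26a1, the main enzyme of retinoic acid breakdown, was also low: on day 7 it was at 5.14 and 4.72 RPM in control and 27.0 and 18.4 RPM with BMS, a difference of 1.97 ± 0.62 that did not pass (adjusted p = 0.243), and on day 4 at 3.61 and 3.38 against 1.02 and 0.807 RPM.

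Crabp1 and Crabp2, the cytoplasmic carriers of retinoic acid, were called lower on day 9, against 2.46% of all genes called. Crabp1 was at 50.2 and 78.3 RPM in control and 10.5 and 18.2 RPM with BMS and fell by 2.1 ± 0.53 (limma adjusted p = 0.0131), and Crabp2 was at 45.1 and 60.4 against 12.0 and 15.3 RPM and fell by 1.87 ± 0.49. Both Crabp genes lost the call when control n1, control n2 or BMS n1 was left out. On days 4 and 5 neither Crabp gene was lower, with differences of -0.01 to 0.73. Fabp5, a fatty acid binding protein that can also carry retinoic acid, was at 48.5 and 25.2 against 42.0 and 35.1 RPM on day 9.

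None of the 12 receptors and cofactors tested on day 9 was called, against 2.46% of all genes, and their median difference was 0.01. Rxra was at 22.7 and 24.1 RPM in control and 22.9 and 21.5 RPM with BMS on that day. Rara, Rarb and Rarg were under 18 RPM in all 16 libraries. Rarb, which retinoic acid itself induces in many cells, was at 0.604 to 4.91 RPM in control and 0 to 1.55 RPM with BMS, too low to be tested. Of 29 measured retinoic acid target genes, most of them homeobox genes silent in these cells, 7 were tested on day 9 and 3 were called, all lower, against 1.91% of all genes called lower: Stra8, Rec8 and Tgm2. Tgm2 was not called on day 9 without control n1, control n2 or BMS n1.

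Of 25 meiotic prophase genes tested on day 9, 5 were called and all 5 were lower (Stra8, Rec8, Meioc, Sycp1 and Sycp2), against 1.91% of all genes called lower. Of the 25 differences 24 were negative, with a median of -0.75 against -0.13 for all genes. On day 4, 1 of 19 was called (Stra8), against 0.199% of all genes, and the median was -0.06. Meioc, which holds germ cells in meiotic prophase, was at 63.0 and 44.6 RPM in control and 1.88 and 10.7 RPM with BMS on day 9, and fell by 3.22 ± 0.65 (limma adjusted p = 0.00113). Sycp1, the transverse filament of the synaptonemal complex, was at 16.2 and 33.1 against 0.375 and 7.48 RPM and fell by 2.82 ± 0.65. Sycp2, of its lateral element, was at 23.1 and 35.2 against 3.00 and 9.11 RPM and fell by 2.21 ± 0.58. For all 3, the level with BMS was lower in n1 than in n2, and none was called on day 9 without BMS n1. Meioc was also lost without control n1. Sycp1 and Sycp2 could not be tested with 1 control library left out, because too few libraries then reached the minimum level.

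Other meiotic genes were not called. Sycp3, also of the lateral element, was at 47.2 and 196 RPM in control and 44.6 and 104 RPM with BMS on day 9. The cohesin subunit Smc1b was at 189 and 343 against 82.9 and 177 RPM (-1.06 ± 0.35, adjusted p = 0.0673). The recombinase Dmc1 differed by -0.75 ± 0.45. The groups overlapped for Sycp3 and did not for Smc1b and Dmc1.

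Some germline genes have promoters that DNA methylation keeps silent in other cells. Of 23 such genes tested on day 9, 6 were called lower and none higher, against 1.91% lower and 0.542% higher among all genes: Sycp1, Taf7l, Tuba3b, Slc25a31, Dpep3 and Sohlh2. The median was -0.84 against -0.13 for all genes, and on day 4 it was 0.02 over 17 genes with none called. Taf7l, a germ cell form of a TFIID subunit, was at 10.3 and 19.5 RPM in control and 0.793 and 2.72 RPM with BMS on day 7, and at 35.5 and 61.4 against 6.75 and 12.4 RPM on day 9. Sohlh2, a transcription factor of oocyte and spermatogonial differentiation, was at 114 and 106 against 18.8 and 47.2 RPM and fell by 1.84 ± 0.33 (limma adjusted p = 0.000188). Of these 6, Taf7l, Sohlh2 and Slc25a31 were not called without control n1, and none was called without BMS n1. With 1 control library left out, Sycp1, Tuba3b and Dpep3 had too few libraries at the minimum level to be tested. Taf7l on day 7 was not called without BMS n1 of that day, and could not be tested with 1 control library left out. Dazl and Ddx4, the widely used markers of later germ cells, did not pass: Dazl was at 754 and 1038 against 162 and 665 RPM on day 9, and Ddx4 at 61.3 and 121 against 54.8 and 117 RPM.

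**Figure D3:**
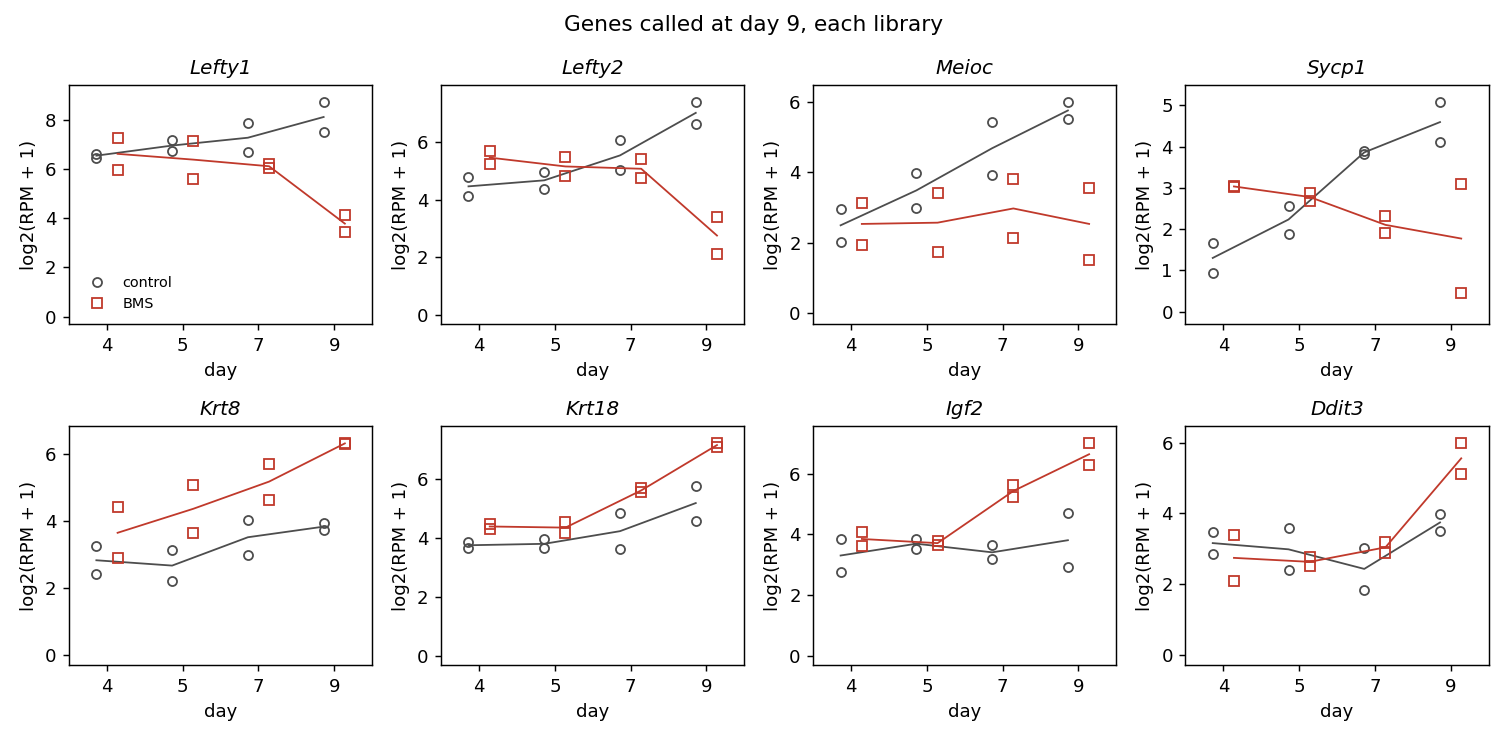
Level of 8 genes called on day 9 in every library, on a log2(RPM + 1) axis, by culture day, with grey circles for control and red squares for BMS. Lefty1, Lefty2, Meioc and Sycp1 lie higher in control on day 9 than on day 4 and are low with BMS on day 9, and Krt8, Krt18, Igf2 and Ddit3 are highest with BMS on day 9.

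Among all 222 genes called on day 9, Lefty1 and Lefty2 differed most after Stra8. Lefty1 (chr1:180935022-180938400) and Lefty2 (chr1:180893108-180899103), secreted inhibitors of Nodal that Nodal itself switches on, are near-identical neighbours, so reads may be split between them. Lefty1 was at 422 and 181 RPM in control and 9.75 and 16.6 RPM with BMS and fell by 4.34 ± 0.62 (limma adjusted p = 1.52e-06), and Lefty2 was at 165 and 97.4 against 3.38 and 9.43 RPM and fell by 4.24 ± 0.66. On day 4 Lefty1 was at 86.9 and 98.2 against 154 and 61.3 RPM and Lefty2 at 16.6 and 26.4 against 49.6 and 36.7 RPM, so neither was lower then. Nodal was at 20.3 and 14.0 against 9 and 10.1 RPM on day 9 and did not pass. The Lefty1 and Lefty2 calls of day 9 held in all fits that could be made without 1 library.

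**Figure D4:**
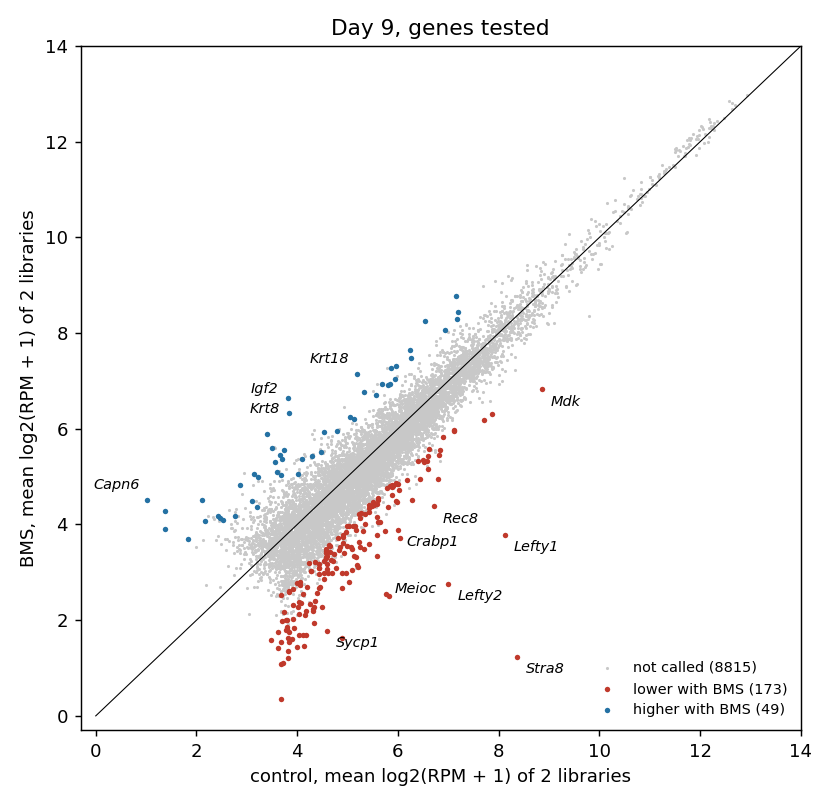
Mean level on day 9 with BMS against control for all 9037 genes tested, both axes log2(RPM + 1), with the diagonal of equal levels. Red points are the 173 genes called lower with BMS and blue points the 49 called higher, and labels mark genes named in the text.

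Genes higher with BMS were mostly called on day 9 or over the 4 days. Krt8 and Krt18, which pair to form the intermediate filaments of simple epithelia, were at 12.4 and 14.4 RPM and 23.1 and 53.5 RPM in control on day 9 and at 79.9 and 79.0 and 134 and 146 RPM with BMS. Krt8 rose by 2.49 ± 0.70 on day 9 (limma adjusted p = 0.0280) and 1.67 ± 0.35 over the 4 days, and Krt18 by 1.96 ± 0.51 and 1.13 ± 0.26. Krt7 was called as well, together with Cldn7, a claudin, and Crb3, a polarity protein. For these 3, control n1 was far lower than control n2 on day 9 (2.75 against 13.3 RPM for Krt7, 3.79 against 25.9 for Cldn7, 4.13 against 14.4 for Crb3), and none was called without control n1. Krt8 was not called on day 9 when any 1 of the 4 libraries was left out, and Krt18 was called in 1 of these fits, without control n2. Over the 4 days Krt18 was not called without control n1 of day 7 or of day 9. Krt8 and Krt18 have processed pseudogenes, and how shared reads were counted is not given in the sources used here.

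Igf2, a fetal growth factor expressed from the paternal allele, was at 6.54 and 25.2 RPM in control and 76.5 and 127 RPM with BMS (2.83 ± 0.63, limma adjusted p = 0.00352). On day 7 it was at 8.08 and 11.5 against 36.5 and 48.6 RPM without a call, and on day 5 at 10.6 and 13.5 against 12.7 and 11.6 RPM. Capn6, a member of the calpain family, was at 0.688 and 1.44 against 15.8 and 29.9 RPM and rose by 3.49 ± 0.80. Neither was called without control n1. Fabp3, a fatty acid binding protein, rose by 1.70 ± 0.40, from 81.9 and 104 to 469 and 195 RPM, and was not called without control n1 or BMS n1.

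Of 21 glycolysis genes tested, 19 differences were positive on day 9 (median 0.43 against -0.13 for all genes), with 2 called higher, Pfkm and Pfkfb3, against 0.542% of all genes. Neither was called without control n1 or BMS n1. All 21 were positive over the 4 days (median 0.36 against -0.06), with 2 called higher, Eno1 and Ldha, against 0.398% of all genes. Ldha, lactate dehydrogenase A, was at 12.6 and 30.7 RPM in control and 53.3 and 53.3 RPM with BMS on day 4, and at 130 and 429 against 1443 and 690 RPM on day 7. By day 9 the groups met, at 928 and 1035 against 1561 and 917 RPM. Ldha rose by 1.68 ± 0.38 over the 4 days (limma adjusted p = 0.00301). Eno1 rose on day 4, from 14.8 and 62.0 to 96.2 and 152 RPM, a call that was lost without control n1 or BMS n2, and both genes have pseudogenes. Ndrg1 and Ankrd37, which hypoxia induces, were the 2 of 16 hypoxia genes called over the 4 days, both higher, against 0.398% of all genes. Of the 16 fits that left out 1 library, 10 lost Ndrg1, 7 Ankrd37 and 8 Eno1.

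All 14 genes tested of the integrated stress response had positive differences on day 9 (median 0.64 against -0.13 for all genes), and 1 was called higher, against 0.542% of all genes: Ddit3, the transcription factor CHOP. It was at 10.3 and 14.7 RPM in control and 62.3 and 33.8 RPM with BMS and rose by 1.81 ± 0.47 (limma adjusted p = 0.0151). Without control n1 or BMS n1 it was not called. Pmaip1, a p53 target that promotes cell death, was the 1 called gene of 17 in its list over the 4 days (1.29 ± 0.30), against 1.12% of all genes.

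T (brachyury), the mesoderm factor, was at 0 in both control libraries of day 5 and at 12.1 and 1.55 RPM with BMS, at least 14.4-fold higher over the group with a floor of 3 reads, and at 0 and 0.590 against 27.7 and 9.18 RPM on day 7. By day 9 it was at 2.41 and 0 against 0 and 2.93 RPM. Fgf4, a growth factor of pluripotent cells, was at 0.735 and 2.06 RPM in control and 55.5 and 13.3 RPM with BMS on day 7, and at 12.4 and 9.34 against 88.5 and 25 RPM on day 9. In the BMS libraries Fgf4 was higher in n1 than in n2 on every day. Both rose over the 4 days (T by 1.73 ± 0.24, Fgf4 by 1.93 ± 0.44, limma adjusted p = 5.11e-08 and 0.00301), and neither call was made by edgeR or with the 16 libraries fitted alone. Etv1, an ETS factor, separated the groups, at 7.25 to 15.8 RPM in control and 16.3 to 39.6 RPM with BMS (rose by 1.14 ± 0.28).

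The other lists held few called genes on day 9. At a background of 2.46%, none was called of 17 early germ cell genes, 22 pluripotency genes, 30 genes of oxidative phosphorylation, 24 of DNA replication, 22 of mitosis, 12 of DNA methylation, 10 of the BMP response, 17 p53 targets, 6 mesoderm genes, 5 neural genes, 13 glucocorticoid and FOXO targets and 12 genes of the serum response. The medians of these lists lay between -0.22 and 0.50. Of 27 genes of cholesterol and fatty acid synthesis 1 was called, Acaca, the acetyl-CoA carboxylase (-1.10 ± 0.24), and of 16 hypoxia genes 1, Ero1l, an oxidase of the endoplasmic reticulum (1.12 ± 0.33). Of 6 oocyte genes Sohlh2 and Tle6 were called, and of 10 male germ cell genes Lefty1, Lefty2 and Rhox13 (-1.51 ± 0.47), all lower. None of Acaca, Ero1l and Rhox13 was called without control n1 of day 9. Mtor, the growth kinase, fell on days 7 and 9, from 107 and 130 to 41.3 and 74.5 RPM on day 9, but was lost on both days with TMM factors and without control n1, control n2 or BMS n1 of the day. With TMM factors the median of all genes on day 9 moved from -0.13 to 0.02, so that the medians of lists on that day are to be read against it, and of 185 genes then called 82 were higher and 103 lower, or 44.3% higher in place of 22.1%.

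Stroma and feeder markers and the transgene rows were also read on day 9. The 22 stroma and feeder markers summed to 997 and 1184 RPM in control and 1654 and 1784 RPM with BMS. Fn1, Sparc, Vim and Lgals1 led these sums. Of the markers 9 were tested and none was called, against 2.46% of all genes (median 0.83). Among the 22, 8 were under 10 RPM in all 8 libraries of each group and none was at 0 in all 8. Their part in the higher keratin and Igf2 levels was not tested. The rtTA row was at 13576 and 15049 RPM in control and 15830 and 7210 RPM with BMS on day 9, and mCherry at 406 and 162 against 43.5 and 95.9 RPM. With BMS, rtTA was also unequal on day 7, at 16294 RPM in n1 and 7576 RPM in n2. On day 9 the groups thus overlapped for rtTA, while mCherry, which lies on the Zglp1 transgene, was lower in both BMS libraries than in both control libraries. The sum of the 3 transgene rows was lower in both BMS libraries than in both control libraries on days 4 and 5. On day 4 it was at 19373 and 18478 RPM in control against 15452 and 12585 RPM with BMS. On day 5 it was at 18323 and 17418 against 13442 and 12419 RPM. On days 7 and 9 the groups overlapped for this sum. Whether these values bear on the differences between n1 and n2, or on those between BMS and control, was not tested.

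The effect of BMS differed between day 9 and day 4 for 11 of 9501 genes (0.116%), 1 towards higher (0.0105%) and 10 towards lower (0.105%), by limma's test of that difference. Lefty2 (-5.23 ± 0.94), Sycp1 (-4.56 ± 0.92) and Lefty1 (-4.41 ± 0.87) had the largest differences, all lower on day 9 relative to day 4. Brca2, a DNA repair gene used in meiotic recombination, was at 53 and 36.8 RPM in control and 56.1 and 65.0 RPM with BMS on day 4, and at 64.7 and 52.5 against 25.1 and 22.1 RPM on day 9 (-1.71 ± 0.38). Stra8, Rec8, Mdk, Nr6a1, Pbx2 and Tle6 did not pass this test, with differences from -2.50 for Stra8 to 0.35 for Pbx2. None of the 11 calls was made without control n1 of day 9 or without BMS n1 of day 9.

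The same compound was also given with Dox on day 9, in other libraries of the same clone (2 BMSDox and 2 Dox), where 694 of 9260 genes were called (7.49%). Without BMSDox n1 145 were called, without Dox n1 228 and without Dox n2 357. Stra8 was at 575 and 613 RPM with Dox and at 38.1 and 29.3 RPM with BMS and Dox, and fell by 4.11 ± 0.69 (limma adjusted p = 2.25e-05). Mdk (-1.17 ± 0.38) and Sycp2 (-1.86 ± 0.58) were also called lower there. Rec8 at -0.48 ± 0.43, Nr6a1 at -0.23 ± 0.22, Pbx2 at -0.35 ± 0.26 and Tle6 at 0.55 ± 0.30 were not. Of the 71 genes lower over the 4 days without Dox, 54 were tested with Dox, and 6 were called lower and none higher, at a background of 3.47% lower. Of the 39 higher genes 18 were tested, and 12 were called higher (background 4.03%), among them Ldha, Eno1, Ndrg1, Krt8, Krt18, Podxl and Sfxn1. The difference between the comparisons with and without Dox was not tested.

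A comparison in the parental line H18, which carries both reporters but no Zglp1 transgene, shares no library with the 16. There the labels name the treatments B2RA and BMP2, and B2RA is read here only as a treatment name. The days are those in the sample titles, since a stage entry in the labels gives day 3.5 for nearly all libraries titled PGCLC_cloneH18. Over days 5, 7 and 9, 679 of 10497 genes differed (6.47%), 428 higher with B2RA (4.08%) and 251 lower (2.39%). Of the 71 genes lower with BMS, 65 were tested there, and 36 were called higher with B2RA and 1 lower (Nphs1), with a median difference of 1.11 against 0.02 for all genes. Of the 39 genes higher with BMS, 16 were tested, with 2 called higher and 3 lower. This comparison was added after the data were seen.

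**Figure D5:**
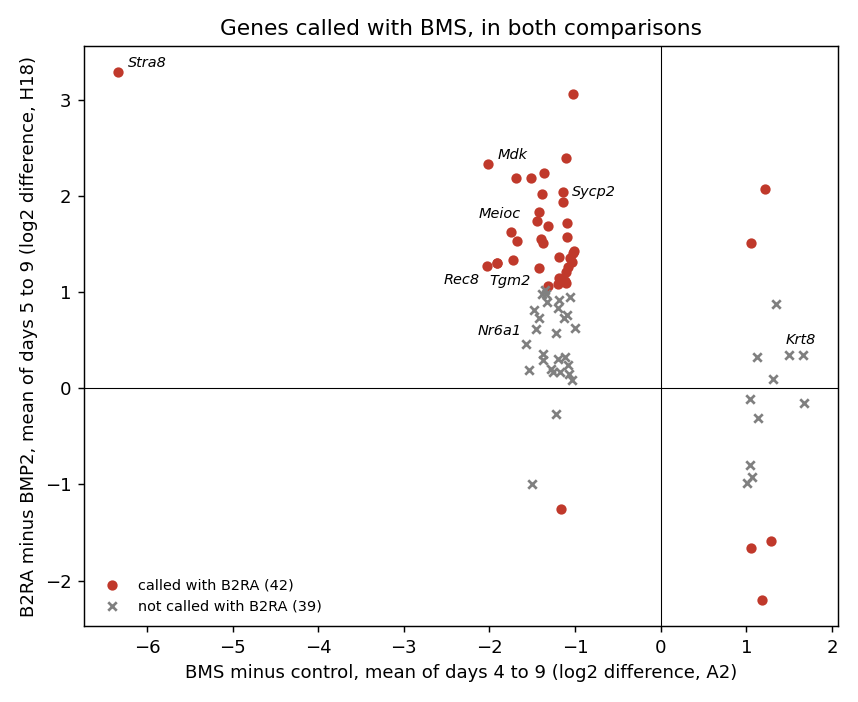
Difference between B2RA and BMP2 in line H18 (mean of days 5, 7 and 9) against the difference between BMS and control (mean of days 4 to 9), both on the log2(RPM + 1) scale, for the 81 genes called with BMS and tested in both. Red circles mark the 42 also called with B2RA and grey crosses the other 39. Most genes lower with BMS lie above 0 on the B2RA axis, with Stra8 farthest to the left.

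Stra8 in H18 was at 88.5 and 71.1 RPM with BMP2 and 812 and 730 RPM with B2RA on day 7 (difference over the 3 days 3.28 ± 0.40, limma adjusted p = 3.78e-10). Rec8 was at 125 and 156 against 396 and 798 RPM, and Mdk at 206 and 207 against 771 and 1994 RPM. Cyp26a1 (6.88 ± 0.36), Dhrs3 (3.29 ± 0.37) and Rarb (2.95 ± 0.37) were higher with B2RA. Lefty2 was lower with B2RA (-2.22 ± 0.38) as well as with BMS on day 9, so not every gene lower with BMS was higher with B2RA. Nr6a1 (0.61 ± 0.13), Pbx2 (0.73 ± 0.15) and Tle6 (0.73 ± 0.17) had adjusted p-values by limma of 8.57e-05, 9.69e-05 and 0.000901 but differed by less than 1 on the log2 scale, and so were not called with B2RA. Cd97 (0.19 ± 0.24) and Porcn (-0.27 ± 0.26) were not called with B2RA either.

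For retinoic acid alone, the labels give RA and control libraries of H18 on day 3.5, and none of 8377 genes was called by limma (0%), where 283 had an unadjusted p under 0.05; edgeR called 0, with 43 under 0.05 unadjusted. Without RA n1, 153 were called. Nr6a1 was at 255 and 333 RPM with RA and 140 and 166 RPM in control there (0.93 ± 0.22, adjusted p = 0.342), and Mdk at 180 and 302 against 69.7 and 112 RPM (1.39 ± 0.38, adjusted p = 0.776). On day 4 Stra8 was at 12.7 and 20.7 RPM with RA and 0.820 and 0 RPM in control, Nr6a1 at 228 and 256 against 76.7 and 89.3 RPM, and Mdk at 232 and 254 against 43.5 and 42.3 RPM. Day 4 was not tested, because the labels give its RA and control libraries different extraction protocols, so that treatment and protocol cannot be told apart.

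The cells of clone A2 were also grown without serum, with and without a compound named WIN. Without WIN there was 1 library a day, numbered n1, and with WIN there were 2. The single libraries add nothing to the spread, which limma's main fit pooled over all groups of the model. None of 9671 genes was called for WIN over the 4 days by limma (0%), where 650 had an unadjusted p under 0.05 and edgeR called 3, while with the replicate number as a block 131 were called. Stra8 with WIN was at 108 and 33.3 RPM on day 4, 171 and 41.6 on day 5, 266 and 128 on day 7, and 224 and 192 on day 9, so n1 was higher than n2 on each day. Without WIN it was at 98.9, 95.8, 295 and 324 RPM, and the difference over the 4 days was -0.55 ± 0.43.

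The results for BMS rest on 1 clone. In clone A2 before treatment Stra8 was at 0 and 1.20 RPM on day 0 and at 91.5 and 105 RPM on day 3, in libraries whose extraction protocol in the labels is not that of the 16. The BMS libraries, at 0 to 5.10 RPM, thus lay below both day 3 libraries. Control libraries of 5 other clones, all Zglp1-/- or Stra8-/-, were also read. By their titles, clones B6, F6 and A11 are knockouts of Stra8 itself, and A11 is also titled Zglp1OE, like A2. The 40 control libraries of these 5 clones held 0 to 40.3 RPM of Stra8 (median 2.54). Every A2 control library of the 16 lay above that range, and the BMS libraries lay within it. Meioc was at 0 to 14.4 RPM in the 10 of these libraries from day 9. In parental H18, control libraries of day 4 held 0.820 and 0 RPM of Stra8, under the other extraction protocol. These clones differ from A2 in genotype, so clone and genotype cannot be told apart, and the difference was not tested.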

How the data were processed

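The 3′ ends of mRNA, amplified from 1 ng of total RNA, were sequenced in 16 libraries used here, and other PGCLC libraries of the series entered the same model. Values are RPM (reads per 1000000 endogenous reads), as the authors deposited them, in 194 of the 195 columns; the remaining 1 fits no sample's labels and was left out. In the columns whose sum the transgene rows lift farthest above 1000000, the deposited values are recorded as a signal of the same scale. Tools named per the submitters' processing notes are HTSeq 0.9.1, SAMtools 1.3, TopHat2 2.1.0, Bowtie 1.1.2 and cutadapt 1.9.1, with mm10; the strand setting, shared reads and molecular identifiers are not given in the sources used here. Whole reads were recovered for 100% of values within 0.05 reads.

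The test was limma 3.58.1 (R 4.3.3) on log2(RPM + 1), with 1 model of 98 groups in 191 libraries and Benjamini-Hochberg adjustment, on genes with at least 2 compared libraries at 10 RPM. Called means an adjusted p under 0.05 and a difference of at least 1. Alternatives were pseudocounts of 0.5 and 5 RPM, no filter, TMM factors, the compared libraries alone, a replicate block, edgeR 4.0.16 on recovered reads and leaving out each library. For BMS against control without Dox, the fits on these libraries alone, with the block and by edgeR used all 16, also for single days. The fitting code was also run on simulated counts with independent libraries and 1 fixed dispersion for all genes. Such counts lack the uneven spread of the real libraries, so that run cannot show how reliable the calls are.

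Named genes were Stra8, Rec8, Zglp1, list members, and up to 12 rises and 12 falls at 20 RPM or more without overlap (overlap was not asked for day 9 minus day 4). Genes called on 2 or more days, and the other genes named in overlaps, were chosen after their values were seen. The members and lists were chosen with earlier results of these data known. Gene positions are from GENCODE for mm10, and promoters from RefSeq for GRCm38.p6.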

Additional observations from a re-analysis of the deposited data

Results flagged for a closer look

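The effect of BMS on day 9 differed from that on day 4 for 11 genes, by limma's test of that difference with adjusted p-values from 0.00217 to 0.046. The difference of the effects, day 9 minus day 4 on the log2(RPM + 1) scale, was -5.23 for Lefty2, -4.56 for Sycp1, -4.41 for Lefty1, -3.87 for Neurog3, -3.76 for Wbp2nl, -3.16 for Tuba3b, -3.16 for Zfp612, -2.09 for Lrrc14, -1.71 for Brca2, -1.10 for Hnrnpf and 2.21 for Crb3.

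Neurog3, a transcription factor also used by early spermatogonia, was at 3.25 and 0.307 RPM in control and 8.83 and 4.84 RPM with BMS on day 4, and at 13.1 and 12.9 against 2.63 and 1.63 RPM on day 9. Zfp612 was at 7.57 and 3.07 against 6.46 and 9.28 RPM on day 4 and at 15.1 and 11.1 against 0.375 and 2.93 RPM on day 9. Wbp2nl was at 11 and 12.6 against 0 and 0.650 RPM on day 9, and Tuba3b, a tubulin, at 13.1 and 10.8 against 2.25 and 1.63 RPM. Lrrc14 was at 17.9 and 14.0 against 2.25 and 7.16 RPM on day 9. Hnrnpf, an RNA-binding protein, differed on day 4, at 188 and 277 against 453 and 486 RPM, and lay at 452 and 391 against 394 and 410 RPM on day 9. Crb3 was at 35.3 and 37.7 against 22.4 and 38.7 RPM on day 4 and at 4.13 and 14.4 against 28.5 and 36.8 RPM on day 9. None of the 11 was called without control n1 or without BMS n1 of day 9, and edgeR called 1 gene.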

How the results depend on the processing

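Counts of called genes are given for days 4, 5, 7, 9, the mean of the 4 days and day 9 minus day 4, in that order, against 17, 8, 11, 222, 110 and 11. With the 16 libraries fitted alone they were 0, 1, 2, 45, 43 and 1, and with edgeR on the 16 libraries 0, 0, 0, 19, 52 and 1. Without a filter they were 25, 30, 54, 483, 201 and 31. A pseudocount of 0.5 RPM gave 6 on day 7, and 5 RPM gave 29 for the mean. Leaving out 1 library gave 1 to 17, 1 to 20, 2 to 19, 3 to 403, 76 to 159 and 0 to 157. The mean of days 4, 5 and 7, chosen after seeing the data, gave 68. The correlation of same-numbered deviations was 0.37, 0.51, -0.15 and 0.22 on days 4, 5, 7 and 9, above 0.1 on 3 of the 4 days, and the labels tie n1 and n2 to no shared culture, so the numbers were not taken to pair the libraries. With the replicate block the counts were 3, 3, 4, 162, 73 and 2, with 1042 for BMSDox against Dox, 131 for WIN, 2 for RA and 343 for B2RA against BMP2. For BMSDox against Dox (694), no filter gave 1187, edgeR 1095 and leaving out 1 library 145 to 506. For WIN (0), 5 RPM gave 1, no filter 11, the compared libraries alone 2, edgeR 3 and leaving out 1 library 0 to 3. For RA (0), no filter gave 6 and leaving out 1 library 0 to 153. For B2RA against BMP2 (679), 5 RPM gave 288, the compared libraries alone 372, edgeR 357 and leaving out 1 library 505 to 931. Of the named genes, 10 of 32 called for the mean and 4 of 39 called on day 9 kept the call under every alternative that could be computed, and none of the named called genes changed direction. With 2 libraries a group, where 1 was left out the lone library was assumed to vary like the other groups. One read was worth 0.295 to 0.773 RPM, which limits genes of a few RPM. The cause of these changes was not tested.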
